A study of Mus musculus with 12 samples.

Results

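The 8 genes described here, Lrrk2, Park7, Pink1, Vps35, Uchl1, Atp13a2, Fbxo7 and Dnajc6, carry inherited variants linked in people to Parkinson disease or to related parkinsonism. They were chosen by name, and all 8 were found among the 57132 features of the count table and among the 13902 features that passed the filter on low values. Striatum was taken from 10-month-old C57Bl/6 mice of both sexes, from TAAR5-KO mice, in which the trace amine-associated receptor gene Taar5 is knocked out, and from their wild-type (WT) littermates, with 6 libraries per genotype. The dissected tissue was a coronal slice without its cortex, so it held spiny projection neurons, interneurons, glia and vessels together. The question was whether Lrrk2 changed alone among these genes between the genotypes.

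The 8 genes meet in a few routes of cell maintenance. LRRK2 is a large kinase that phosphorylates Rab proteins on vesicles, VPS35 is a core subunit of the retromer that returns cargo from endosomes, and auxilin, the product of Dnajc6, strips the clathrin coat from vesicles. PINK1 marks damaged mitochondria for removal together with parkin, ATP13A2 is a lysosomal membrane pump for polyamines, FBXO7 and UCHL1 act in the ubiquitin system, and DJ-1, the product of Park7, protects cells against oxidative stress. Dopamine neurons of the midbrain die in the disease, and their axons end in the striatum, where spiny neurons are known to express Lrrk2 strongly.

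Taar5, the targeted gene, was measured first. It had between 1 and 6 counts in the libraries labelled TAAR5-KO and between 0 and 2 in those labelled WT, where a count of 0 allows up to 3 counts. These counts go against the labels without settling whether they are wrong, so the libraries are called labelled TAAR5-KO (NK1 to NK6) or labelled WT (NK7 to NK12), and each direction follows the labels. Total counts ran from 11269915 to 34824450 per library, but ribosomal RNA held 64.3% to 88.1% of them, and 1819907 to 6399188 counts remained outside it. Values are CPM, counts scaled to a fixed sequencing depth, on library sizes corrected by the trimmed mean of M-values (TMM), whose factors ran from 0.375 to 2.46. The spiny neuron markers were all present, with a summed level of 238 to 495 CPM over 8 genes. Of the 6 dopamine neuron markers, Slc6a3 and Pitx3 had at most 3 and 1 counts in any library, and Th had 0 to 12. Ddc had 7 to 31 counts, Slc18a2 11 to 67 and Nr4a2 37 to 372.

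All 8 genes were counted in every library, with raw counts from 24 for Atp13a2 in NK10 to 1855 for Dnajc6 in NK12. Divided by the length of the merged exons, the levels spanned a 14.4-fold range. Pink1 was the highest at 9.94 ± 0.982 CPM per kilobase (SD, n = 12 libraries) and Uchl1 followed at 9.91 ± 1.15. These levels did not differ beyond their spread, since Pink1 exceeded Uchl1 in 5 of 12 libraries. Dnajc6 stood at 6.17 ± 0.722 CPM per kilobase and Vps35 at 2.702 ± 0.246, and each step down from Uchl1 through Dnajc6 and Vps35 to Park7 (1.93 ± 0.254) held in 12 of 12 libraries. Lrrk2 had 1.43 ± 0.238 CPM per kilobase and was below Park7 in 10 of 12 libraries. Fbxo7 (0.966 ± 0.117) was below Lrrk2 in all 12 libraries, and Atp13a2 (0.691 ± 0.161), the lowest, was below Fbxo7 in 11 of 12. These are levels of transcripts in the whole tissue, in which more cells of a type and more RNA per cell cannot be told apart.

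Lrrk2 was higher in the libraries labelled TAAR5-KO, and it was the one gene of the 8 past the threshold of an adjusted p under 0.1. The gene (ENSMUSG00000036273.16) lies on chromosome 15 of GRCm39 from 91557378 to 91700323 on the plus strand, with 11834 bases of merged exons. In the libraries labelled TAAR5-KO its level was 19.9 CPM (NK1), 18.0 CPM (NK2), 20.0 CPM (NK3), 21.1 CPM (NK4), 16.4 CPM (NK5) and 18.5 CPM (NK6). In the libraries labelled WT it was 15.2 CPM in NK7, 16.5 in NK8, 14.8 in NK9, 16.7 in NK10, 11.6 in NK11 and 13.6 in NK12. The groups overlapped only through NK5, which lay below NK8 and NK10, and the other 5 with its label stood above all 6 of the WT label. The mean was 19.0 ± 1.66 CPM against 14.7 ± 1.94 CPM (SD, n = 6 each), which is a log2 fold change of 0.37 (SE 0.10) or a 1.29-fold higher level (95% interval 1.13 to 1.49). The adjusted p over all features was 0.0384 by the likelihood ratio test of edgeR, at rank 95 of 13902 by p. That test called 1.65% of all features, 0.957% as higher and 0.691% as lower, so 1 call among 8 genes can be read only as the call on Lrrk2 itself.

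The call on Lrrk2 was close to the threshold. The quasi-likelihood test of edgeR, which called 0.453% of all features, gave an adjusted p of 0.121, and over all alternatives the adjusted p ran from 0.0144 to 0.881. Leaving out each library in turn gave log2 fold changes from 0.31 to 0.42, and the call was lost without NK1, NK11 or NK12 (adjusted p = 0.109, 0.161 and 0.116). When libraries were scaled by size alone, the log2 fold change of Lrrk2 was −0.11, while the median of all features moved to −0.49, so that Lrrk2 stood 0.38 above that median.

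**Figure D1:**
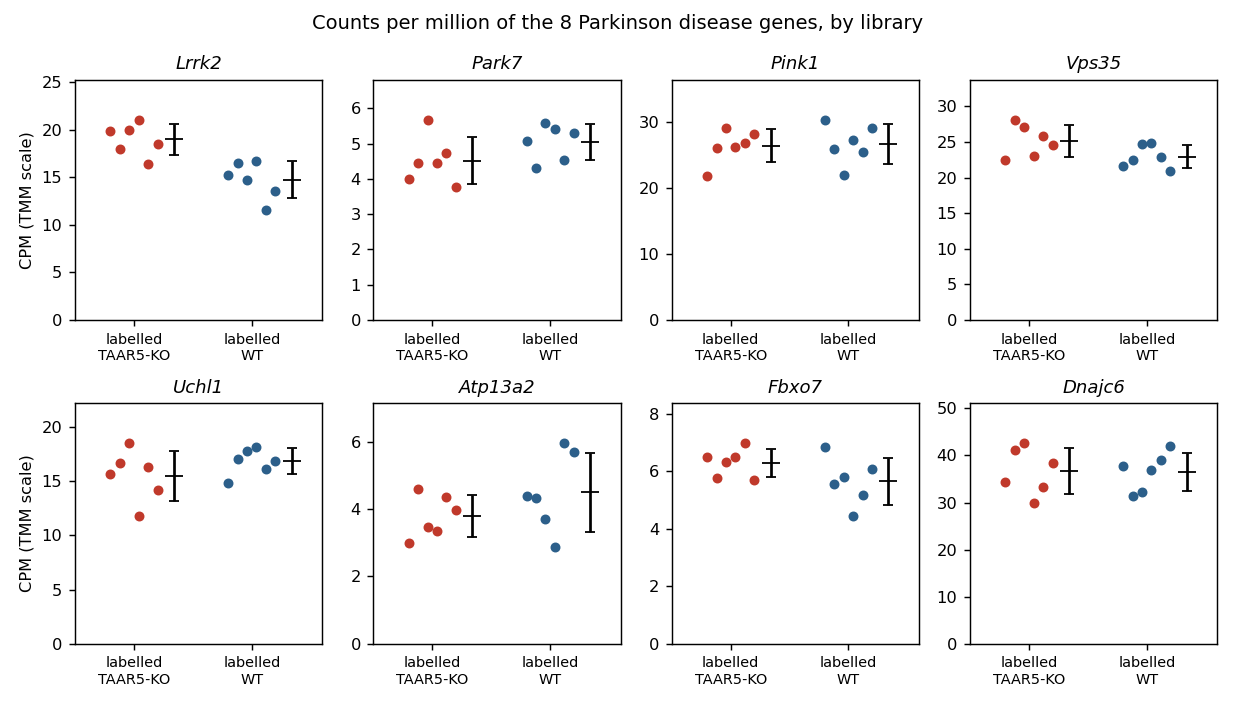
CPM on the TMM scale (vertical axes, from 0) of the 8 genes in the 6 libraries labelled TAAR5-KO (red) and the 6 labelled WT (blue), with mean and SD in black. For Lrrk2, 5 of the 6 red points lie above every blue point, and the points of the other 7 genes overlap more widely.

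The other 7 genes were not past the threshold in the likelihood ratio test, the quasi-likelihood test or DESeq2, nor in any other alternative. No gene of the 8 had label groups that did not overlap, as 1.01% of all features did. Their median log2 fold change was −0.02, and that of all features tested was −0.01. The biological coefficient of variation of the 8 genes ran from 9.06% for Vps35 to 15.1% for Atp13a2, with a median of 12.5% over all features tested.

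Of the genes of vesicle traffic, neither Vps35 nor Dnajc6 passed the test. Vps35, the retromer subunit on chromosome 8 from 85987021 to 86026431, ranged from 22.4 to 28.1 CPM (median 25.2) in libraries labelled TAAR5-KO and from 21.0 to 24.8 CPM (median 22.7) in those labelled WT. Of the libraries labelled TAAR5-KO, 3 exceeded all labelled WT and 3 lay within their range. The log2 fold change was 0.15 (adjusted p = 0.514, SE 0.086). Its 95% interval, −0.02 to 0.31, leaves room for no change and for most of the difference seen in Lrrk2. A part of the Vps35 exons matches 18 other places of the genome at an identity of at least 90% over 345 to 584 bases, and 171 bases overlap exons of Orc6 on the other strand. Dnajc6 (chromosome 4, 101353828 to 101499996), whose product auxilin works with the chaperone HSC70, was measured more deeply than any other of the 8. It ranged from 29.9 to 42.5 CPM (median 36.4) and from 31.4 to 41.9 CPM (median 37.4), ranges that nearly coincide. Its log2 fold change was −0.0024 (SE 0.11), with a 95% interval from −0.21 to 0.21. That interval overlaps the interval of Lrrk2, from 0.17 to 0.57, and the difference between Lrrk2 and Dnajc6 is tested below.

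The mitochondrial and redox genes did not differ beyond the spread between libraries. Pink1 (chromosome 4, 138040720 to 138053618) ranged from 21.9 to 29.1 CPM (median 26.6) in libraries labelled TAAR5-KO and from 22.0 to 30.4 CPM (median 26.6) in those labelled WT, ranges that nearly coincide. The log2 fold change was −0.02 (SE 0.097), and its 95% interval ran from −0.21 to 0.17. Park7 (chromosome 4, 150981590 to 150998894) ranged from 3.78 to 5.67 CPM (median 4.45) and from 4.30 to 5.58 CPM (median 5.19). Of the 6 libraries labelled TAAR5-KO, 4 lay below all libraries labelled WT but NK8, yet NK3 with this label held the highest level of all 12, and the log2 fold change of −0.16 (adjusted p = 0.643, SE 0.12) did not pass the test.

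The genes of the ubiquitin system and the lysosome pointed to both sides of 0. Uchl1 (chromosome 5, 66833434 to 66844577), an abundant ubiquitin hydrolase of neurons, ranged from 11.8 to 18.5 CPM (median 16.0) and from 14.9 to 18.2 CPM (median 17.0). NK4 had the lowest value and NK3 the highest, both labelled TAAR5-KO, and the log2 fold change was −0.12 (adjusted p = 0.709, SE 0.10). Fbxo7 (chromosome 10, 85857836 to 85887737), a substrate adaptor of an SCF ubiquitin ligase, ranged from 5.68 to 6.96 CPM (median 6.41) and from 4.46 to 6.84 CPM (median 5.68). Its log2 fold change was 0.12 (adjusted p = 0.731, SE 0.11), and 3 libraries labelled WT lay below all labelled TAAR5-KO. Atp13a2 (chromosome 4, 140714184 to 140734641) ranged from 2.99 to 4.61 CPM (median 3.72) and from 2.89 to 5.96 CPM (median 4.37). Its higher values came from NK11 and NK12, labelled WT, while NK10 with the same label was the lowest of all 12 libraries. The log2 fold change of −0.29 (adjusted p = 0.464, SE 0.16) was the lowest of the 8, and its 95% interval ran from −0.60 to 0.02. The exons of Uchl1 and Fbxo7 overlap transcripts of the other strand by 295 and 314 bases, so a part of their counts is uncertain where the strand setting is not named. Those of Pink1 overlap 2 transcripts of the same strand by 179 bases, which no strand setting would tell apart.

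**Figure D2:**
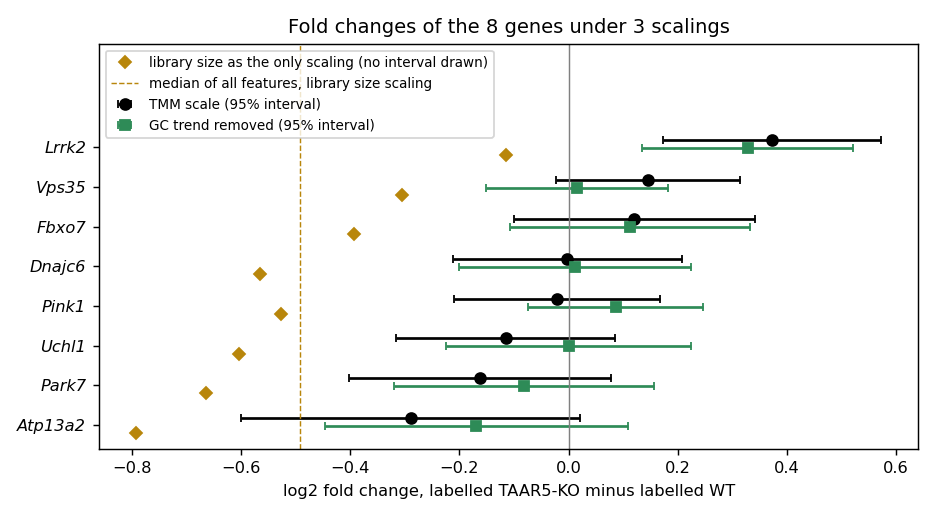
Log2 fold change (horizontal axis, labelled TAAR5-KO minus labelled WT) of each gene on the TMM scale (black, 95% interval), after removal of each library's GC trend (green, 95% interval) and with library size as the only scaling (gold diamonds, with the median of all features as a dashed line). Lrrk2 at 0.37 is the highest on all 3 scales, and library size scaling moves all 8 genes down together.

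Whether Lrrk2 changed apart from the others was tested on the difference itself. In each library the log2 level of another gene, as log2(CPM + 0.5), was subtracted from that of Lrrk2, a value in which the scaling factor of the library nearly cancels. The 7 differences were compared between labels with exact permutation of the 12 libraries (two-sided), with p adjusted by Benjamini–Hochberg over the 7 comparisons. The rise of Lrrk2 was known when the genes were chosen, so these tests describe how far it stood from each other gene.

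Lrrk2 gained most clearly on Park7 and Uchl1. Relative to Park7 it stood at 1.97 ± 0.219 under the label TAAR5-KO and at 1.46 ± 0.215 under WT (log2, SD, n = 6 each). The difference of 0.51 (SE 0.13) had an exact permutation p of 0.00649 (adjusted p = 0.0227) and passed 0.1 in all 15 alternatives. Relative to Uchl1 the difference was 0.49 (SE 0.14, exact permutation p = 0.00433, adjusted p = 0.0227), and 5 of 6 libraries labelled TAAR5-KO exceeded all labelled WT. Relative to Pink1 it was 0.38 (SE 0.13, exact permutation p = 0.0195, adjusted p = 0.0455), and this passed in 12 of 15 alternatives, failing without NK1 or NK4 and with the length trend removed.

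For the remaining 4 genes the separation was weaker. Lrrk2 gained 0.56 (SE 0.25) on Atp13a2 and 0.36 (SE 0.16) on Dnajc6, with exact permutation p of 0.0433 and 0.0541 and the same adjusted p of 0.0758. Each of these was lost without NK1, NK3, NK4, NK7, NK11 or NK12, and with the length or the GC trend of each library removed. The gain on Vps35 was 0.23 (SE 0.12, exact permutation p = 0.0844, adjusted p = 0.0985), and it was lost on leaving out any library but NK2, NK5, NK8 or NK10. The gain on Fbxo7, 0.21 (SE 0.14, exact permutation p = 0.167, also after adjustment), did not pass, although it did without NK5 or NK10. The change of Lrrk2 was thus separated from that of 6 of 7 genes at an adjusted p under 0.1, from 2 with the length trend removed and from 3 with the GC trend removed, and from Park7 alone in all alternatives.

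**Figure D3:**
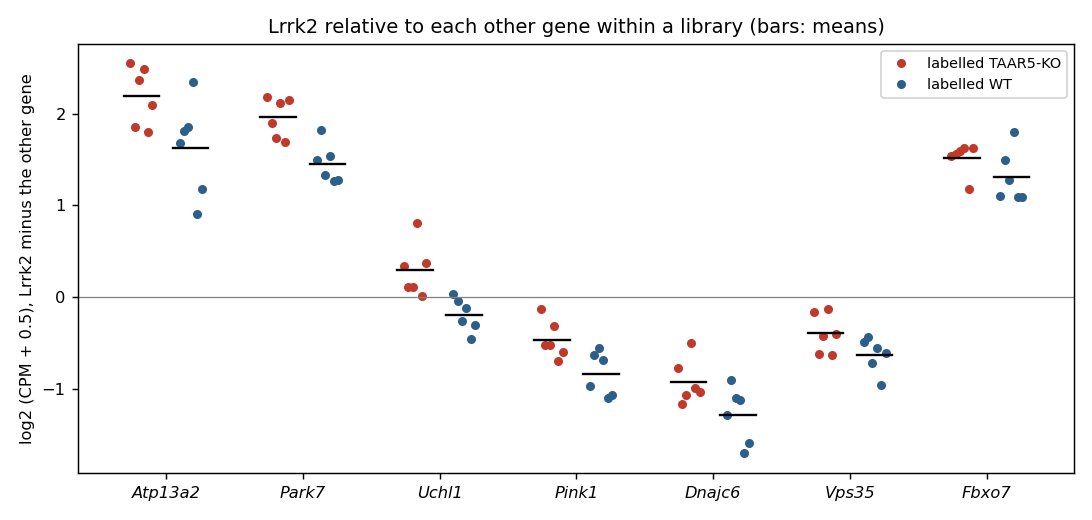
Log2 level of Lrrk2 minus that of each other gene within a library (vertical axis, log2 of CPM + 0.5), for libraries labelled TAAR5-KO (red) and WT (blue), with means as bars and genes ordered by the difference between labels. The red mean is above the blue mean for all 7 genes, by 0.21 for Fbxo7 up to 0.56 for Atp13a2.

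The fold changes of the 8 genes differed with their base composition, though not in strict order. GC content of the merged exons was 39.6% in Vps35, 43.99% in Lrrk2, 46.7% in Fbxo7 and 47.9% in Dnajc6, and it was 53.3% in Park7, 57.3% in Pink1, 59.2% in Uchl1 and 59.5% in Atp13a2. The 3 genes with a positive log2 fold change were the 3 of lowest GC content. The same gradient ran through all features tested, whose median log2 fold change was 0.18 for the 1242 features below 40% GC, 0.08 from 40% to 44%, −0.09 from 52% to 56% and −0.12 from 56% to 60%. Lrrk2 stood furthest above the median of its class.

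With the trend of each library on GC content removed from the fit, Lrrk2 remained the highest at 0.33 (SE 0.099), and it was no longer past the threshold (adjusted p = 0.117, with a range over all its alternatives from 0.0144 to 0.881). The log2 fold change of Vps35 was 0.02 (SE 0.085) on this scale, and that of Uchl1 moved to 7.54e-05. Fbxo7 kept 0.11 (SE 0.11) and Atp13a2 stood at −0.17 (SE 0.14). On this scale Lrrk2 gained on Park7, Pink1 and Vps35 at an adjusted p under 0.1 by the exact permutation test, and not on the other 4.

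**Figure D4:**
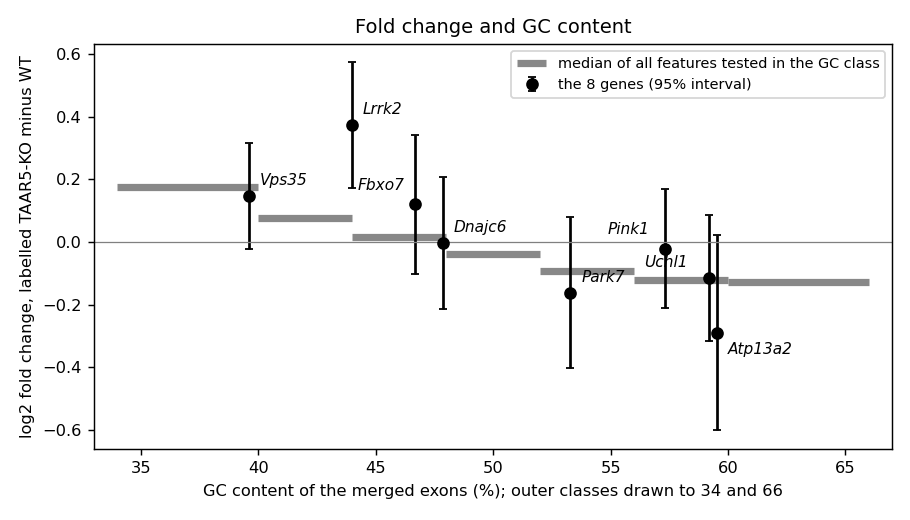
Log2 fold change (vertical axis, labelled TAAR5-KO minus labelled WT, 95% interval) of the 8 genes against the GC content of their merged exons in percent, with the median of all features tested in each GC class as grey bars. The grey bars fall from 0.18 to −0.13, 7 of the 8 genes have intervals that hold the bar of their class, and the interval of Lrrk2, from 0.17 to 0.57, lies above its bar at 0.08.

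Markers of some cell types in the slice also differed between the labels. The exact permutation tests of the marker sums were not planned, and their p-values are not adjusted over the lists. The summed level of 8 markers of spiny neurons ran from 394 to 495 CPM in libraries labelled TAAR5-KO and from 238 to 426 CPM in those labelled WT, a mean difference of 0.31 on the log2 scale (exact permutation p = 0.0152). All 8 of these genes had a positive log2 fold change with a median of 0.30, and none passed the threshold in the likelihood ratio test or the quasi-likelihood test of edgeR, while 6 had an unadjusted p under 0.05, as 11.9% of all features did. NK4 was highest and NK11 lowest both in this sum and in Lrrk2. Without NK11 the difference of the sum was 0.19 (exact permutation p = 0.0303). Markers of the direct (D1) and the indirect (D2) pathway neurons each held 5 positive and 1 negative value, with medians of 0.22 and 0.13 and no gene past the threshold. The sum of the D1 markers differed by 0.27 on the log2 scale (exact permutation p = 0.0801), and that of the D2 markers, which ran from 109 to 133 and from 71.6 to 120 CPM, differed by 0.22 (exact permutation p = 0.0368).

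Glial markers stood on the other side of 0. The summed level of 10 microglia markers ran from 29.9 to 43.5 CPM in libraries labelled TAAR5-KO and from 43.6 to 53.1 CPM in those labelled WT, so the label groups did not overlap. The mean difference was −0.35 on the log2 scale (exact permutation p = 0.00216, the smallest that 6 against 6 libraries allow). Of the 10 genes 3 passed the threshold as lower, where 0.691% of all features did. All 8 astrocyte markers had a negative log2 fold change, with a median of −0.35, and 1 of them passed the threshold. Of these 8 genes, 6 had an unadjusted p under 0.05 in the likelihood ratio test, as 11.9% of all features did. The astrocyte sum ran from 1043 to 1245 and from 1149 to 1354 CPM, a difference of −0.10 on the log2 scale (exact permutation p = 0.0952). Of 8 markers of mature oligodendrocytes, 7 were negative and none passed. Their sums ran from 592 to 722 and from 626 to 807 CPM, a difference of −0.18 on the log2 scale (exact permutation p = 0.0281). Of 5 markers of oligodendrocyte precursors 4 were negative, with sums from 14.3 to 18.6 and from 16.5 to 20.4 CPM (exact permutation p = 0.0909). Sums of cortical pyramidal markers ran from 29.1 to 96.2 and from 35.7 to 109 CPM (exact permutation p = 0.866). Those of endothelial markers ran from 5.55 to 7.56 and from 5.04 to 7.06 CPM (exact permutation p = 0.652). Choroid plexus markers ranged from 2.60 to 467 CPM within the libraries labelled TAAR5-KO and from 3.50 to 285 CPM within those labelled WT (exact permutation p = 0.208). The summed dopamine neuron markers ran from 6.63 to 14.7 and from 6.74 to 12.0 CPM (exact permutation p = 0.439). Nr4a2 made up most of this sum, with means of 7.88 and 6.49 CPM.

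Lrrk2 was therefore also set against these sums within each library, a comparison chosen after the data were seen. Relative to the spiny neuron sum, Lrrk2 differed between the labels by 0.05 on the log2 scale (SE 0.085, exact permutation p = 0.574), with values from 0.0095 to 0.11 on leaving out each library in turn. Relative to the microglia and astrocyte sums Lrrk2 was higher by 0.71 and 0.46 (exact permutation p = 0.00216 for each, the smallest possible). Lrrk2 was known to be higher and both sums to be lower under the label TAAR5-KO. These 2 differences hold both shifts, and their p-values add nothing on Lrrk2 itself. The rise of Lrrk2 was thus close in size to that of the spiny neuron markers, and the part of the cell make-up in it was not tested. Within the 5 libraries of a TMM factor under 1, which held 85.6% to 88.1% ribosomal RNA, Lrrk2 was higher by 0.29 on the log2 scale (3 against 2 libraries, exact permutation p = 0.1, the smallest possible). Within the 7 others it was higher by 0.39 (3 against 4 libraries, exact permutation p = 0.0857, where 0.0286 is the smallest possible). This split was also chosen after the data were seen.

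**Figure D5:**
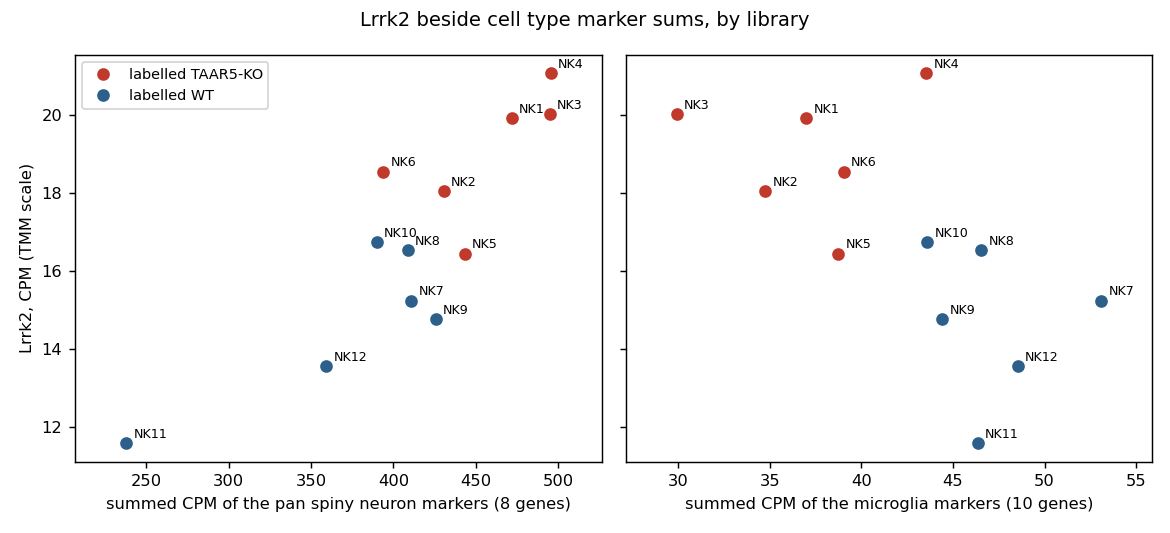
Lrrk2 in CPM (vertical axis) against the summed CPM of the spiny neuron markers (left) and of the microglia markers (right) in the 12 libraries, labelled TAAR5-KO in red and WT in blue. On the left NK4 is highest and NK11 lowest on both axes, and on the right the labels are separate on the microglia axis, below and above 43.6 CPM.

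The partners of the 8 genes were examined in 8 lists of 150 genes in all, of which 145 were tested. The likelihood ratio test called 3 of them, 2.07%, which is near the 1.65% of all features, and the quasi-likelihood test called none. In the first test 18 of the 145 had an unadjusted p under 0.05, where 11.9% of all features did. The median log2 fold change of the 145 genes was −0.05.

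In the list of other Parkinson disease genes none of 13 tested passed, with 7 positive values, 6 negative values and a median of 0.03. The phosphatase gene Synj1, whose product sheds clathrin coats together with auxilin, had a log2 fold change of −0.05 (SE 0.094). The list of LRRK2 partners, which holds its paralog, Rab substrates, effectors and a phosphatase, had 4 positive and 14 negative values in 18 genes tested, and none passed. Rab10, a main substrate of the kinase, had from 20.8 to 23.8 CPM in the first label group, from 23.1 to 24.6 CPM in the second and a log2 fold change of −0.10 (adjusted p = 0.622, SE 0.076), and Rab3a had −0.09 (SE 0.11).

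Among 28 genes of mitophagy around Pink1, 13 were positive, 15 negative and 1 passed. Tomm70a, a receptor of the outer mitochondrial membrane that takes in precursor proteins, ranged from 50.6 to 58.0 CPM in libraries labelled TAAR5-KO and from 35.4 to 47.6 CPM in those labelled WT. The label groups did not overlap, as for 0.626% of all features in this direction. Its log2 fold change was 0.32 (adjusted p = 0.0609, SE 0.092), and it was 0.17 (adjusted p = 0.602) with the GC trend removed and kept its call on leaving out 7 of the 12 libraries in turn. Gabarapl1 of the autophagosome membrane had a log2 fold change of −0.07 (SE 0.12).

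The retromer and clathrin lists held no gene past the threshold. The 18 genes around Vps35 were divided evenly into 9 positive and 9 negative values with a median of −0.00, and its partners Rab7 and Snx3 had log2 fold changes of −0.18 (SE 0.089, adjusted p = 0.405) and −0.04 (SE 0.082). Of 16 genes of clathrin coats around Dnajc6, 6 were positive and 10 negative. The chaperone gene Hspa8 had 116 ± 11.3 and 111 ± 15.2 CPM (SD, n = 6 each) with a log2 fold change of 0.06 (SE 0.11), and the dynamin gene Dnm1 had 0.01 (SE 0.14).

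The lysosome list around Atp13a2 had 15 negative and 6 positive values with a median of −0.11. Of its 21 genes 2 passed the threshold, both as lower, where 0.691% of all features did. Grn encodes progranulin, a lysosomal protein made by microglia and neurons. It ranged from 2.29 to 2.81 CPM (median 2.56) in libraries labelled TAAR5-KO and from 2.41 to 4.20 CPM (median 3.74) in those labelled WT. Its log2 fold change was −0.52 (adjusted p = 0.0293, SE 0.14), and the call was lost without NK6, NK7 or NK11. Lamp1, a protein of the lysosomal membrane, ranged from 19.3 to 22.5 CPM (median 20.7) and from 21.4 to 27.1 CPM (median 25.6). Its log2 fold change of −0.27 (adjusted p = 0.0797, SE 0.084) kept its call on leaving out 4 of the 12 libraries in turn. With the GC trend removed Grn had −0.43 (adjusted p = 0.143) and Lamp1 −0.23 (adjusted p = 0.207), so neither call held. The quasi-likelihood test called neither gene (adjusted p = 0.127 and 0.161). Both were lower under the label whose microglia sum was also lower (difference of −0.35 on the log2 scale), and the part of these cells was not tested.

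The last lists were those of the ubiquitin genes around Uchl1 and Fbxo7 and of the redox genes around Park7. Of 10 ubiquitin genes tested 6 were positive and 4 negative and none passed, with log2 fold changes of 0.01 (SE 0.081) for the polyubiquitin gene Ubb and 0.04 (SE 0.082) for the SCF subunit Skp1. Of 21 redox genes 15 were negative and 6 positive with a median of −0.11, and none passed. The lipid peroxidase Gpx4 had a log2 fold change of −0.18 (adjusted p = 0.488, SE 0.10), and the catalase gene Cat had −0.08 (SE 0.10).

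Within the label groups Lrrk2 did not rise and fall together with any of the other 7 genes, and it tended to vary opposite to Atp13a2. The deviations of its log2 level from the label means were compared with those of every other feature over the 12 libraries, and Pearson's r is given as a description, since all features of a library share its depth, its scaling factor and its trend on base composition. The nearest features included Adh5 (r = 0.91), Nck1 (0.90), U2af1 (0.88) and Tgfa (0.87), none of which passed the threshold between the labels. Among the other 7 genes r ran from 0.11 for Park7 down to −0.36 for Dnajc6 and −0.81 for Atp13a2, near the lower end of all features. The libraries in which Lrrk2 was high for their label were thus often those in which Atp13a2 was low, as in NK11, where Lrrk2 was lowest and Atp13a2 highest.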

How the data were processed

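Striatal RNA of 12 mice was depleted of ribosomal RNA, made into directional libraries and read in single-end mode on an MGI DNBSEQ G-400 sequencer. The authors removed adapters with Cutadapt 4.1, used STAR 2.7.11b with the GRCm39 genome and obtained counts with featureCounts 2.0.6; the raw counts they deposited were used as they stand. Neither the strand setting of the counting nor its handling of reads with several matches is given in the sources used here. A further 12 columns of other samples were not used. The columns were tied to a genotype by name, and not to an animal or sex. The members and lists were chosen with earlier results of these data known.

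Features with at least 0.5 CPM in at least 3 libraries were tested in R 4.3.3 with edgeR 4.0.16 (TMM factors, likelihood ratio test, Benjamini–Hochberg over all features, threshold 0.1), the test that the study's methods describe. The main filter passed 13902 features, of which 229 were called. With CPM taken on TMM library sizes 13053 passed, the number that the study reports, and 234 were called. The study reports fewer calls at this threshold, and more of its calls were lower than higher in TAAR5-KO. Here 135 of the 234 were higher, and the cause of this difference was not tested. The quasi-likelihood test and DESeq2 1.42.0 were alternatives. Standard errors came from the Fisher information of the fit, and 95% intervals are 1.96 SE on either side. The intervals and the p-values of the fit both rest on the spread estimated between these libraries. A floor of 3 counts was set for a count of 0, for counting error only. The tests were checked on simulated data. GC content was computed from GRCm39 over the exons given in the table, and copies were searched at an identity of at least 90% over at least 200 bases. Other alternatives were other scalings, filters and pseudocounts, a ribosomal RNA covariate, removal of each library's GC or length trend, and leaving out each library. Genes named were the 8 members, Taar5, in each list the genes past the threshold filled up to 2 by length-scaled level, and the 5 features most like Lrrk2. Of these, 2 genes are not reported here. No 2 libraries of 1 label agreed within sampling noise (chi-square per degree of freedom 6.74 or more in 30 pairs).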

Additional observations from a re-analysis of the deposited data

Results flagged for a closer look

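In the libraries labelled TAAR5-KO, NK5 stood apart from the other 5 in the log2 level of Lrrk2 minus that of Fbxo7. It had 1.18, while the others lay between 1.54 and 1.62, and the gap took 0.817 of the range, above the 95% critical value of Dixon's test for 6 libraries. Chance alone passes this test in about 5% of groups, and 30 groups were tested. NK5 held the lowest Lrrk2 level and the highest Fbxo7 level among the libraries labelled TAAR5-KO. Without NK5, Lrrk2 gained 0.28 on Fbxo7 with an adjusted p of 0.0714 by the exact permutation test.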

How the results depend on the processing

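No paired analysis was possible because the columns carry library numbers that the labels do not tie to the numbered animals. Of the 8 genes 1 was called, and none was under the quasi-likelihood test, library size scaling, no filter, the ribosomal RNA covariate or the GC correction (0 to 1 on leaving out each library). Lrrk2 kept its call under DESeq2 (adjusted p = 0.0242), RLE factors, both other filters, removal of ribosomal RNA features (0.0853) and the length correction (0.084). It lost it under the quasi-likelihood test (log2 fold change 0.37, adjusted p = 0.121), no filter (0.35, 0.263), the ribosomal RNA covariate (0.33, 0.142) and the GC correction (0.33, 0.117), turned to −0.11 (0.881) under library size scaling, gave 0.31 to 0.42 on leaving out each library, and gave 0.29 (exact permutation p = 0.1) within libraries of TMM factor under 1.

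Features called numbered 229 (133 higher), and 63 under the quasi-likelihood test, 7 (0 higher) under library size scaling, 93 without a filter, 98 (51 higher) with the ribosomal RNA covariate, 87 with the GC correction, 108 at 0.05 and 85 (without NK11) to 414 (without NK4) on leaving out each library. Calls in the lists numbered 3, and 0 under the quasi-likelihood test, library size scaling, no filter, the covariate and the GC correction, 1 without ribosomal RNA features, 1 at 0.05, and 0 to 5 on leaving out each library. The 6 comparisons of Lrrk2 with another gene past 0.1 became 2 with the length correction, 3 with the GC correction and 2 to 7 on leaving out each library.

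None of the 7 other genes was called in any of their 24 alternatives, but signs turned. Pink1 had 0.047 (covariate), 0.012 (length) and 0.087 (GC), and −0.057 to 0.027 on leaving out each library. Dnajc6 had 0.0018 (DESeq2), 0.0025 (RLE), 0.027 (covariate), 0.0053 (length) and 0.012 (GC), and −0.045 to 0.047 on leaving out each library. Uchl1 had 7.54e-05 (GC). Under library size scaling Vps35 had −0.31, Fbxo7 −0.39 and Tomm70a −0.20. The cause was not tested. Atp13a2 with 24 to 252 counts and Park7 with 45 to 235 were the genes of lowest depth, and the 95% interval of Atp13a2 was the widest of the 8.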
